A study of Mus musculus with 19 samples.

Results

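The comparison described here sets reporter-positive follicular helper T (Tfh) cells against naive CD4 T cells, 6 of the 19 arrays in the series. Members were chosen by their titles: the 4 arrays of CXCR5hi PD-1hi cells sorted as positive for the YFP reporter of Bcl6, called YFP-positive 1 to 4, and the 2 arrays of naive CD4 T cells, called naive 1 and naive 2. The series profiled CD4 T cells of C57BL/6J mice on Affymetrix arrays, and the other 13 arrays hold other sorted populations after the same immunization. The YFP-positive cells were OT-II T cells, which carry a transgenic receptor for an ovalbumin peptide, of the Bcl6yfp/+ genotype, in which 1 Bcl6 allele carries the YFP reporter. Congenic recipients of these cells received a subcutaneous injection of NP-OVA in complete Freund's adjuvant, and the cells were sorted from draining lymph nodes on day 7 (YFP-positive 1 to 3) or day 10 (YFP-positive 4). The naive cells were CD4+ CD44lo CD62Lhi cells from spleens of mice without immunization, and the labels give them neither the OT-II receptor nor the reporter. RNA came by TRIzol for the YFP-positive arrays and naive 1, and by TRIzol or an RNeasy kit for naive 2, whose label does not say which. Tissue, transfer and immunization, and possibly the receptor, differ together between the groups, and their shares in any difference cannot be told apart. The 3 arrays of CXCR5lo PD-1lo cells, sorted on day 7 from immunized recipients of the same OT-II cells, serve below as another reference.

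Naive CD4 T cells circulate between blood, spleen and lymph nodes, guided by the homing and egress receptors CD62L, CCR7 and S1PR1, and they survive on IL-7 in a resting state kept by factors such as KLF2 and FOXO1. After antigen and co-stimulation some become Tfh cells: the repressor BCL6 and its partners favour CXCR5, which draws the cells into B cell follicles, and the cells deliver CD40 ligand, IL-21 and IL-4 to germinal centre B cells. PD-1, ICOS and SAP tune that contact, and CXCR5 and PD-1 are the usual surface marks by which Tfh cells are sorted.

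The deposited values are log2 GCRMA levels, background-corrected and summarized per probe set, and 9930 genes were tested after a filter on low values. On each of the 6 arrays the median probe set lay between 2.45 and 2.95, so values near 2 are the floor of the scale, and a difference from a group at the floor depends on where the floor lies. Levels are compared for the same gene between arrays, never between genes. The arrays fell into 7 normalization sets, found from their sorted values. YFP-positive 4 and naive 1 shared a set, naive 2 lay in another, and YFP-positive 1, 2 and 3 lay in 3 further sets. The median gene was 0.39 higher in YFP-positive cells on the deposited scale, while it differed by -0.08 after quantile normalization of all arrays and by 0.02 between the 2 arrays of the shared set. Counts for gene groups are therefore read on both scales. Differences and adjusted p of single genes, and the comparison with CXCR5lo PD-1lo cells, are on the deposited scale unless stated. A gene is called when limma's adjusted p (Benjamini-Hochberg over all 9930 genes) is below 0.05. The labels do not say whether arrays came from separate mice, so the p-values measure the spread between these arrays. In sorted bulk samples fewer cells of a type and less RNA per cell cannot be told apart.

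The identity of the sorted cells was checked first. Of 10 CD4 T cell identity genes, among them Cd4 and the Cd3 chains, 9 reached log2 8 in both groups, and none passed the test in either direction on the deposited scale. Of 14 B cell markers measured, 12 stayed below log2 4 on all 6 arrays, and the other members, Cd22 and Cd72, are described below. Of 19 myeloid markers 14, of 7 CD8 T and NK markers 5, and of 10 stromal markers 9 stayed below log2 4 on all 6 arrays. The CD8 T and NK exceptions were Cd8b1, between 6.06 and 7.59 on all 6 arrays, and Klrd1, described below. The myeloid exceptions were Cst3 (11.62 to 13.24), Cd68 (up to 7.85), Fcgr3 (up to 4.92), Tyrobp (up to 4.52) and Lyz2, given below. The stromal exception was Pecam1 (9.67 to 10.48). Of 7 germinal centre B and plasma cell markers 4 stayed below log2 4 on all 6 arrays. Irf8 and Xbp1, which T cells also express, rose by 4.34 and 1.91, and another probe set of Irf8 gave 0.77. The plasma cell gene Jchain stood at 8.45 on YFP-positive 1 and 5.56 on naive 2 and at 3.06 or lower on the other 4 arrays, and the macrophage gene Lyz2 stood at 6.73 on YFP-positive 1 and at 3.19 or lower elsewhere. Their part in other results was not tested. The Y-linked transcript Eif2s3y was at 13.26 on YFP-positive 4 and 12.89 on naive 2 and at 2.40 or lower on the other 4 arrays, on which Xist was at 13.41 or higher. The pair in the shared normalization set therefore also differs in sex-linked transcripts and holds the day 10 sample.

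A large share of the genes tested differed between the groups. On the deposited scale 2863 of 9930 genes (28.8%) were called, 2222 higher (22.4%) and 641 lower (6.46%) in YFP-positive cells. After quantile normalization 1746 were higher (17.6%) and 2045 lower (20.6%), so the balance of the directions rests on the scale. The calls shared by both scales came to 1686 higher (17%) and 641 lower (6.46%), and these are the counts given for gene groups below. These shares are the background for each group. The YFP-positive and naive arrays did not overlap for 3802 genes that were higher (38.3%) and 1176 that were lower (11.8%). Between YFP-positive 4 and naive 1 alone, which allow no test, 1646 genes were at least log2 1 higher (16.6%) and 1189 at least log2 1 lower (12%). Without naive 2 the deposited scale gave 1112 higher and 476 lower calls, and without naive 1 it gave 1613 and 331, so each naive array carries part of these counts.

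**Figure D1:**
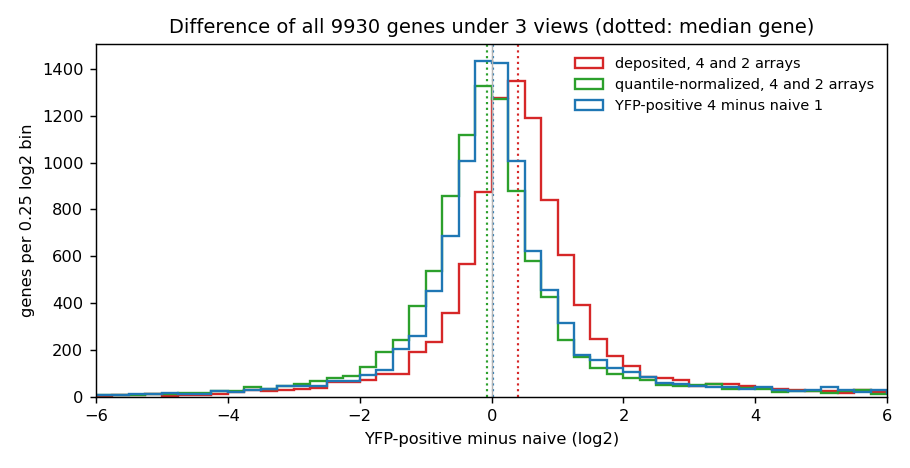
Distribution of the difference between YFP-positive and naive cells (log2, x axis) over all genes tested, as genes per bin (y axis), for deposited values, quantile-normalized values and the single pair that shared a normalization set; dotted lines mark the median gene. The deposited curve sits to the right with its median gene at 0.39, while the other 2 curves have medians of -0.08 and 0.02.

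The genes of the sort gates came first, as a check of the labels. Cxcr5, the receptor for the follicular chemokine CXCL13, read 13.77, 13.80, 13.89 and 14.05 on YFP-positive 1 to 4 against 2.26 and 2.39 in naive cells. The difference was 11.55 ± 0.32 (SE) on the log2 scale with an adjusted p of 4.27e-13. Pdcd1, which encodes PD-1, read 14.35, 14.34, 14.34 and 14.73 against 5.52 and 6.43 (difference 8.47 ± 0.34, adjusted p = 2.65e-11). Bcl6 itself was already well above the floor in naive cells at 11.44 and 11.52 and rose to between 14.08 and 14.62 (difference 2.78 ± 0.26, adjusted p = 5.62e-07). Cd44, low by gate in the naive cells, rose by 4.0 ± 0.30. For all 4 genes the groups did not overlap, but since the gates chose the cells by these products, or by the reporter in the case of Bcl6, the values are no independent result.

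Most Tfh genes rose: of 30 listed and 28 tested, 25 rose on both scales and none fell, with a median difference of 3.88 against 0.39 over all genes. Without Cxcr5, Pdcd1 and Bcl6, which the sort used, 22 of 25 rose, with a median of 3.61. This and the other gene lists were chosen with earlier results of these data known, so their counts are no independent result. Cebpa, a C/EBP family transcription factor best known from myeloid cells, read 13.78, 13.74, 13.66 and 13.75 on YFP-positive 1 to 4 against 2.02 and 2.25 in naive cells (difference 11.60 ± 0.89, adjusted p = 5.09e-08). The 4 YFP-positive arrays lay close together and both naive arrays lay at the floor. In the CXCR5lo PD-1lo cells Cebpa was intermediate and uneven at 7.27 ± 2.01 (SD, n = 3), which put the YFP-positive cells 6.47 above them (adjusted p = 2.94e-05). Tox2, an HMG-box factor, read 14.17, 14.21, 13.81 and 14.12 against 2.53 and 3.11 (difference 11.25 ± 0.33, adjusted p = 6.15e-13). The CXCR5lo PD-1lo cells had Tox2 at a mean of 12.38, 1.70 below the YFP-positive cells.

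Several other transcription factors of helper T cells rose with them. Maf, which drives IL-21 and IL-4 production, rose by 7.08 ± 0.35, from 7.45 and 6.98 to between 13.91 and 14.55. Batf rose by 4.15 ± 0.28 and Irf4, its partner on composite DNA elements, by 4.99 ± 0.35. Another probe set of Irf4 gave 0.82, so the size of its rise rests on the probe set. Pou2af1, a co-activator of octamer-binding factors, rose by 3.42 ± 0.32, and the Ikaros family members Ikzf2 and Ikzf3 rose by 5.29 and 1.99. Bhlhe40, a basic helix-loop-helix repressor, moved from 2.33 and 2.06 to between 12.13 and 12.69 (difference 10.11 ± 0.43). Against the CXCR5lo PD-1lo cells Bhlhe40 differed by 0.14 ± 0.38, which did not pass (adjusted p = 0.917). The vitamin D receptor gene Vdr rose by 8.88 ± 0.56 and stood 7.26 above the CXCR5lo PD-1lo cells.

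Ascl2, a factor able to induce CXCR5, varied between the arrays. It read 7.46, 7.56, 9.05 and 11.83 on YFP-positive 1 to 4 and 2.38 and 2.42 in naive cells (difference 6.57 ± 1.56, adjusted p = 0.0047). The day 10 array was the highest, and the groups did not overlap. Of 52 helper lineage factors listed and 46 tested, 21 rose and 7 fell on both scales. Factors that rose included Rora, Ahr and Gata3, by 3.22, 3.77 and 1.35, which are best known from Th17 and Th2 cells. Tbx21, the master factor of Th1 cells, stayed at the floor in both groups, at 2.33 or lower on all 6 arrays, while it averaged 8.37 in CXCR5lo PD-1lo cells.

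The factors that fell were Prdm1, Foxp3, Ikzf4, Bach2, Klf2, Klf6 and Foxp1. Prdm1 encodes the BCL6 antagonist Blimp-1 and read 2.18, 2.15, 2.38 and 2.28 against 7.75 and 4.32 (difference -3.79 ± 0.92, adjusted p = 0.00562). Foxp3, the regulatory T cell factor, stood at 5.39 and 8.17 on the naive arrays and between 2.47 and 3.92 on the YFP-positive arrays. The naive arrays thus differed from each other for both genes, and both lay above all YFP-positive arrays. Without naive 1 the difference was -2.07 for Prdm1 (adjusted p = 0.162), and without naive 2 it was -2.16 for Foxp3 (adjusted p = 0.221), so each call rests on 1 naive array.

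Cytokine genes of B cell help rose. Il21 read 13.50, 13.90, 13.10 and 13.23 on YFP-positive 1 to 4 against 2.37 and 2.18 in naive cells (difference 11.16 ± 0.51, adjusted p = 1.35e-10). Il4 read 13.23, 13.30, 12.93 and 13.35 against 2.06 and 2.32 (difference 11.01 ± 0.60, adjusted p = 9.19e-10). Both were at the floor in naive cells and high on every YFP-positive array. The YFP-positive cells also exceeded the CXCR5lo PD-1lo cells, which averaged 9.49 for Il21 and 4.03 for Il4, by 3.94 and 9.18 (adjusted p = 1.71e-05 and 4.47e-09).

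Of the 16 helper cytokine genes tested (29 were listed) 9 rose and none fell, and without Il21 and Il4 the count was 7 of 14. Tnfsf14, which encodes the TNF family ligand LIGHT, rose by 9.97 ± 0.43, and Tnfsf11, the RANK ligand gene, by 5.67 ± 0.35. Tnfsf8, the CD30 ligand gene, rose by 5.80 and Cd40lg, the CD40 ligand gene, by 2.74 ± 0.59. Lif, a cytokine of the IL-6 family, rose by 8.93 ± 0.91 and Ebi3, a subunit of IL-27 and IL-35, by 6.66 ± 0.68. Sostdc1, a secreted antagonist of BMP and Wnt signalling, read 11.81, 12.42, 12.44 and 13.41 against 2.63 and 2.42, and the CXCR5lo PD-1lo cells averaged 3.27, with the YFP-positive cells 9.25 above them (adjusted p = 4.47e-09). Ifng was not among the genes that rose: it lay between 2.14 and 3.11 in YFP-positive cells and at 2.27 and 2.45 in naive cells, and averaged 7.16 in CXCR5lo PD-1lo cells.

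Some genes stood out on the day 10 array alone. Gal, which encodes the neuropeptide galanin, read 2.25, 2.21, 2.41 and 13.22 on YFP-positive 1 to 4 and 2.16 and 2.29 in naive cells. The 3 day 7 arrays were at the floor like the naive arrays, and the difference over all arrays did not pass the test (2.79 ± 2.91, adjusted p = 0.501). Csf1, the macrophage growth factor gene, read 2.15, 2.70, 4.30 and 8.49 against 2.21 and 2.33 and did not pass either (adjusted p = 0.277). The cell cycle inhibitor gene Cdkn1a read 2.47, 2.19, 3.21 and 7.01 against 2.77 and 2.27, again highest on day 10 and without a call. With the normalization set as a fixed block in the fit, the differences of Gal, Csf1 and Cdkn1a were 9.59, 5.48 and 3.80. They passed there (adjusted p = 0.0192, 0.00845 and 0.000223). Of the 7 normalization sets, that of the day 10 array alone holds both groups. With 1 day 10 array, the day cannot be told apart from the normalization set.

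Among cytokine receptors, both IL-1 receptors rose. Il1r1, the signalling receptor, read 13.53, 13.96, 13.01 and 13.27 against 2.15 and 2.67 (difference 11.03 ± 0.48, adjusted p = 6.45e-11). Il1r2, the decoy receptor that binds IL-1 without signalling, read 10.04, 8.78, 9.17 and 12.39 against 2.10 and 2.21 (difference 7.94 ± 1.5, adjusted p = 0.000832). Both were at the floor in naive cells and well above it on all YFP-positive arrays. The YFP-positive cells exceeded the CXCR5lo PD-1lo cells by 1.51 for Il1r1 (adjusted p = 0.0305) and by 4.30 for Il1r2 (adjusted p = 0.0477). The Il1r1 call was lost without YFP-positive 1 or 2 (adjusted p = 0.0641 and 0.0842). The Il1r2 call was lost without any 1 of YFP-positive 1 to 4 (adjusted p = 0.0842, 0.051, 0.0656 and 0.123) or without either naive array (adjusted p = 0.0592).

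Receptors for IL-2, IL-4 and IL-7 changed in both directions. Over the 25 receptors tested of 32 listed, 6 rose and 4 fell on both scales, against 17% and 6.46% of all genes. Il2rb, the beta chain shared by the IL-2 and IL-15 receptors, rose by 4.01 ± 0.39, whereas Il2ra, the high-affinity alpha chain, read 2.13, 2.13, 3.06 and 2.96 against 5.78 and 6.18 (difference -3.41 ± 0.68, adjusted p = 0.00129). Il7r, the receptor of naive cell survival, read 7.72, 7.05, 6.64 and 7.90 on YFP-positive 1 to 4 against 14.51 and 14.21 in naive cells (difference -7.03 ± 0.82, adjusted p = 6.79e-06). The groups did not overlap for Il2ra or Il7r, but with the normalization set as a fixed block Il2ra had an adjusted p of 0.0751. With the set as a random block the Il2ra call stayed. Il4ra fell from 11.13 and 11.38 to between 7.07 and 7.49 (difference -4.0 ± 0.27, adjusted p = 1.21e-08), in the same cells in which Il4 rose. Il18r1 fell by 4.76 ± 0.93. Il6ra and Il21r, receptors for cytokines that act on Tfh cells, did not pass the test (adjusted p = 0.997 and 0.394). Another probe set of Il6ra gave 1.585, so its value rests on the probe set.

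Inhibitory and co-stimulatory receptor genes rose in 15 of 29 cases tested (33 listed) and fell in 1. Lag3, an inhibitory receptor for MHC class II, read 11.71, 11.63, 11.61 and 11.74 against 2.19 and 2.22 (difference 9.47 ± 0.29, adjusted p = 7.39e-13). Cd160 rose by 7.14 ± 0.34 and stood 5.14 above the CXCR5lo PD-1lo cells, and Ctla4 rose by 4.32 ± 0.29. Icos, the receptor through which follicular B cells sustain Tfh cells, was already at 12.11 and 11.98 in naive cells and rose by 2.21 ± 0.22. Sh2d1a, which encodes the adaptor SAP, rose by 2.05 ± 0.37. Cd6 was the member that fell on both scales (-1.14 ± 0.23).

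A pair of genes usually used as B cell markers moved in opposite directions. Cd22, an inhibitory lectin that binds sialic acid, read 11.27, 10.86, 10.81 and 11.81 in YFP-positive cells and 2.20 and 2.22 in naive cells (difference 8.98 ± 0.67, adjusted p = 3.75e-08), and averaged 3.85 in CXCR5lo PD-1lo cells. Cd72 read 6.48, 6.63, 5.43 and 7.47 against 10.45 and 10.19 (difference -3.82 ± 0.50, adjusted p = 2.21e-05). On the same arrays Cd79b, part of the B cell receptor, stayed between 2.22 and 2.81.

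**Figure D2:**
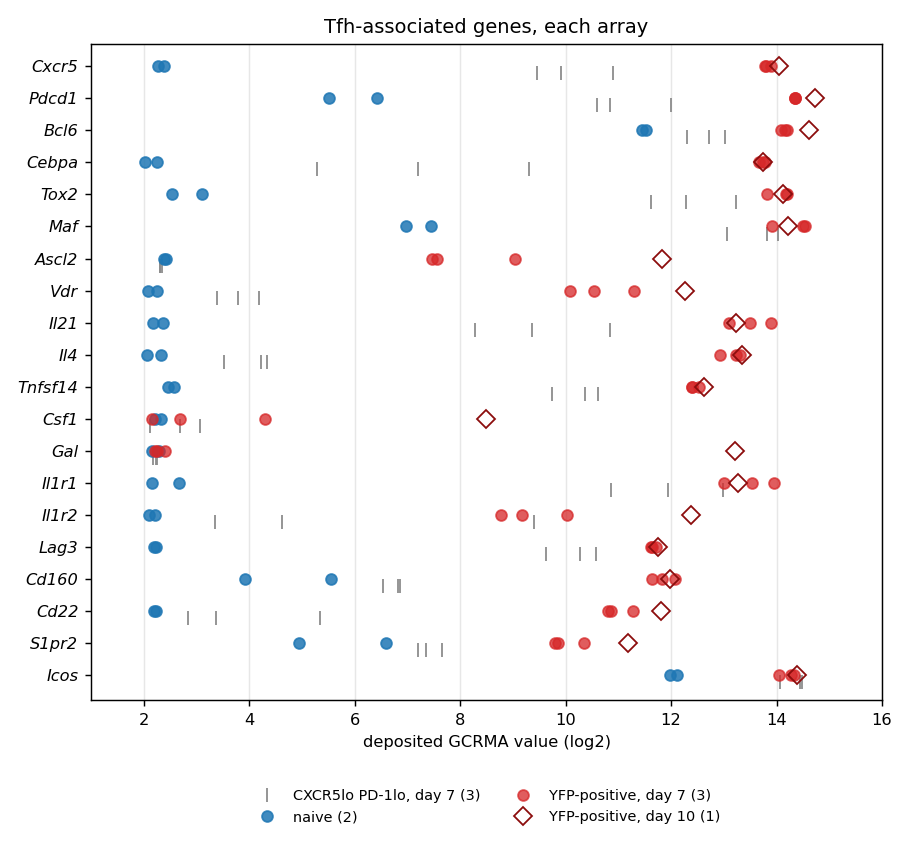
Deposited log2 GCRMA value (x axis) of Tfh-associated genes (rows) on each array: naive (2 arrays), YFP-positive of day 7 (3), YFP-positive of day 10 (1) and CXCR5lo PD-1lo (3), with marks as in the legend. Cebpa, Cxcr5 and Il21 lie near the floor in naive cells and at 13.10 or higher in YFP-positive cells.

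Chemokine receptor and homing genes changed in both directions. Of 26 tested (33 listed), 9 rose and 9 fell on both scales, against 17% and 6.46% of all genes. S1pr2, which confines cells to germinal centres, rose by 4.53 ± 0.48, from 4.94 and 6.60 to between 9.80 and 11.18. Another probe set of S1pr2 gave 1.15. Ccr6, Cxcr3 and Cxcr6, receptors known from cells in inflamed tissue, rose by 7.32, 6.70 and 6.62. Cxcr3 was uneven, at 11.82, 10.56, 10.19 and 7.35 on YFP-positive 1 to 4. Ccr2 stayed at 2.72 or lower and the chemokine gene Ccl5 at 2.66 or lower on all 6 arrays, while in CXCR5lo PD-1lo cells they averaged 11.04 and 8.49.

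The receptors by which naive cells enter and leave lymphoid tissue fell. S1pr1, the egress receptor, read 5.50, 5.02, 5.09 and 3.70 on YFP-positive 1 to 4 against 11.13 and 9.88 in naive cells (difference -5.68 ± 0.61, adjusted p = 2.57e-06). Ccr7, which holds cells in the T zone, read 9.38, 8.42, 8.19 and 3.70 against 13.93 and 12.94 (difference -6.02 ± 1.18, adjusted p = 0.00114). The groups did not overlap for either gene, and the day 10 array was the lowest for both. Itga4, the alpha 4 integrin gene, fell by 5.56 ± 0.39 and Selplg, the P-selectin ligand gene, by 1.83 ± 0.33. Itgb3, the beta 3 integrin gene, read 3.47, 2.23, 2.53 and 2.23 against 12.67 and 11.92. Set against the CXCR5lo PD-1lo cells the YFP-positive cells differed by -5.55 for S1pr1, -5.68 for Ccr7, -4.49 for Itga4 and -8.29 for Itgb3, with adjusted p of 2.19e-06, 0.00152, 1.53e-07 and 3.2e-07.

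Of 35 genes listed for the naive state and quiescence and 31 tested, 16 fell and 3 rose on both scales, with a median of -1.02 against 0.39 over all genes. Klf2, which keeps T cells quiescent and drives S1pr1, read 5.12, 6.05, 4.93 and 3.45 against 12.02 and 11.55 (difference -6.90 ± 0.56, adjusted p = 9.87e-08). Bach2, a repressor that holds back effector differentiation, read 8.12, 7.67, 6.78 and 5.66 against 12.77 and 12.19 (difference -5.43 ± 0.56, adjusted p = 1.82e-06). Tsc22d3, the glucocorticoid-induced leucine zipper gene, fell by 6.57 ± 0.70. Both naive arrays lay above all 4 YFP-positive arrays for each of them.

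The fall was not shared by the whole list. Foxo1, Lef1 and Satb1, transcription factors of resting T cells, differed by -0.65, -0.97 and -0.60 and did not pass on the deposited scale (adjusted p = 0.0974, 0.0586 and 0.131). After quantile normalization their adjusted p was 0.0021, 0.000535 and 3.1e-05. Btg1, an antiproliferative factor, differed by 0.02 ± 0.25. Ramp1, Rgs10 and Nsg2 rose by 1.71, 1.02 and 0.76.

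The 15 genes with the largest falls by the rule for named genes had varied functions. Igfbp4, an insulin-like growth factor binding protein gene, read 2.33, 2.24, 2.26 and 2.69 against 13.26 and 12.33 (difference -10.42 ± 0.69, adjusted p = 1.04e-08). Dapl1, a death-associated protein-like gene, read 5.12, 4.14, 5.99 and 3.14 against 14.37 and 13.88. Klrd1, which encodes the NK receptor chain CD94, read 2.24, 2.15, 2.54 and 2.04 in YFP-positive cells against 11.45 and 9.81 in naive cells (difference -8.39 ± 0.63, adjusted p = 4e-08). For these genes no YFP-positive array reached a naive array. Ctsw, a protease gene of cytotoxic cells, read 2.12, 2.13, 2.18 and 4.24 against 12.35 and 11.43, while the granule gene Nkg7 was at 2.26 or lower on all 6 arrays. Itgb3, given above, is also among the 15. The other members were Tdrp (-9.94), the PDZ and LIM domain gene Pdlim4 (-9.64), Scml4 (-8.98), the nucleotidyltransferase gene Tent5a (-8.75), the sialyltransferase gene St8sia6 (-8.51), the noncoding RNA Airn (-8.26), Lypd6b (-7.98), the AMP deaminase gene Ampd1 (-7.89), the adhesion gene Amigo2 (-7.75) and Treml2 (-7.62). Against the CXCR5lo PD-1lo cells, all 15 genes were also lower with a call, and the differences ran from -9.08 for Scml4 to -2.56 for Ampd1. Over all genes 5.39% were lower in that test. The 15 genes were chosen by their values on the same YFP-positive arrays, so this count is no independent result. The Ampd1 call was lost without any 1 of YFP-positive 1 to 4 (adjusted p = 0.0615, 0.0602, 0.0604 and 0.0516).

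**Figure D3:**
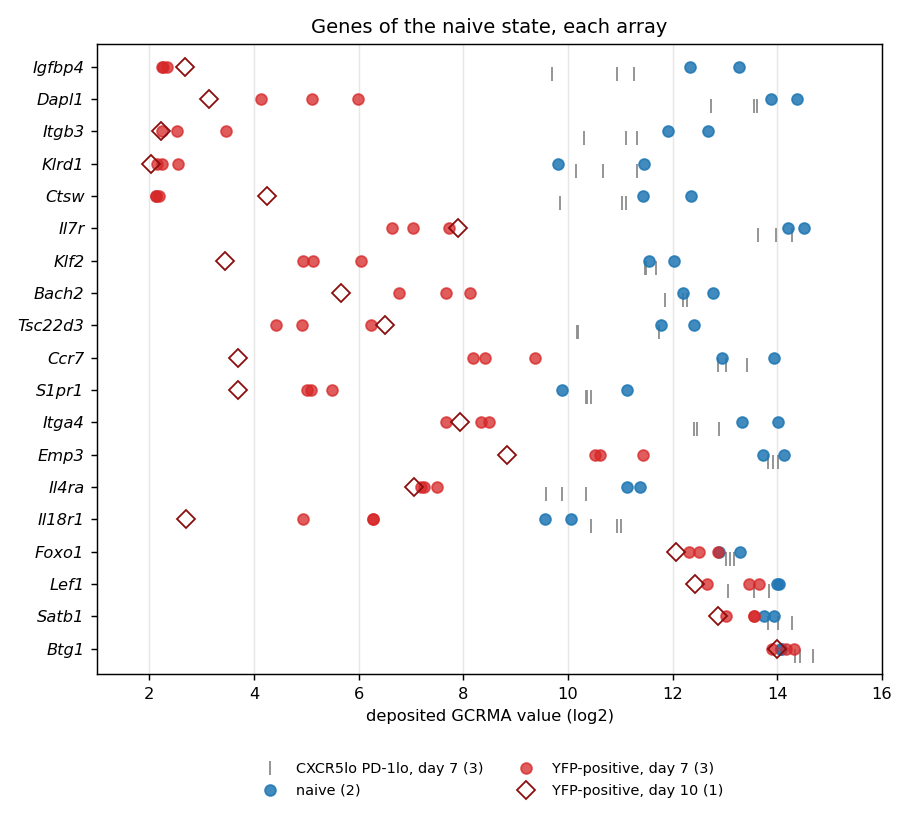
Deposited log2 GCRMA value (x axis) of genes of the naive state (rows) on each array, with the marks of the plot of Tfh-associated genes. Naive values lie to the right of YFP-positive values for Il7r, Klf2, Bach2 and Ccr7, and the CXCR5lo PD-1lo means of these 4 genes, 13.97, 11.55, 12.11 and 13.10, lie nearer to the naive arrays.

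The 15 largest rises held, beside the genes above, Gcnt1, S100a6, S100a4, Nusap1 and Smim3. Gcnt1, a branching enzyme for O-linked glycans, read 13.46, 13.37, 12.82 and 12.41 against 2.33 and 2.49, and the calcium-binding protein genes S100a6 and S100a4 rose by 9.95 ± 0.52 and 9.51 ± 0.55. Against the CXCR5lo PD-1lo cells these genes differed by 0.54, -0.72 and -1.80 (adjusted p = 0.562, 0.416 and 0.023). In the fit with the set as a fixed block Gcnt1 was 0.70 higher and passed (adjusted p = 0.00877). The S100a4 call was lost without YFP-positive 2, 3 or 4 (adjusted p = 0.0566, 0.0728 and 0.0509). Smim3, a small membrane protein gene, rose by 9.44 ± 0.67 and differed from the CXCR5lo PD-1lo cells by 4.62 (adjusted p = 5.33e-05). In a count chosen after the values were seen, 92 genes were below log2 4 on both naive arrays and above log2 8 on all 4 YFP-positive arrays, and 25 showed the reverse. Of the 92, the CXCR5lo PD-1lo arrays were all above log2 8 for 23 and all below log2 4 for 7. Of the 25, they were all above log2 8 for 9 and all below log2 4 for 0.

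Cell division genes rose as a block. Of 40 mitosis genes listed and 39 tested, 37 rose on both scales, against 17% of all genes. All 39 were higher on every YFP-positive array than on both naive arrays, against 38.3% of all genes. Their median difference was 6.28 against 0.39 over all genes. Mki67, the proliferation antigen Ki-67, read 14.05, 13.64, 14.33 and 12.12 on YFP-positive 1 to 4 against 3.49 and 4.79 in naive cells (difference 9.40 ± 0.79, adjusted p = 1.54e-07). Cdk1, the kinase that triggers mitosis, read 12.35, 11.79, 12.42 and 10.06 against 3.74 and 4.55 (difference 7.51 ± 0.95, adjusted p = 1.7e-05). The spindle protein gene Nusap1 read 12.97, 11.95, 12.89 and 10.17 against 2.62 and 2.40. In naive cells all 3 genes stood at 4.79 or lower. The members outside these calls were Kif23 and Ndc80, with differences of 2.60 and 2.55; on the deposited scale their adjusted p was 0.0901 and 0.0216, and after quantile normalization 0.18 and 0.0628.

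The day 10 array was the lowest YFP-positive array for these genes. The mean over the 39 mitosis genes was 11.52, 10.56, 11.61 and 8.60 on YFP-positive 1 to 4 and 4.05 and 4.53 on the naive arrays. On the CXCR5lo PD-1lo arrays it was 9.92, 7.19 and 6.14, also above both naive arrays, so the rise was not particular to YFP-positive cells. DNA replication genes also had the day 10 array as the lowest YFP-positive array, with means of 12.18, 11.79, 12.12 and 9.82 against 8.06 and 8.11. Their means on the CXCR5lo PD-1lo arrays were 11.13, 9.57 and 8.93. Of 36 of them listed and 34 tested, 22 rose on both scales and none fell, with a median of 2.41. Tk1, the S phase thymidine kinase gene, rose by 9.14 ± 1.35 and Cdc6, a licensing factor gene, by 7.70 ± 1.65. Mcm7, Pold1, Dnmt1 and Cdt1 did not pass, with differences of 0.85, 0.89, 0.57 and 0.06. Without YFP-positive 4, the day 10 array, Mcm7, Pold1 and Dnmt1 differed by 1.25, 1.35 and 0.76 and passed (adjusted p = 0.00704, 0.0337 and 0.0242). In the single pair of the shared normalization set the median was 5.06 for the mitosis genes and 1.33 for the replication genes.

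Among regulators of G1, the E2F genes E2f1, E2f2 and E2f3 rose by 6.62, 2.58 and 3.24, and the cyclin E genes Ccne1 and Ccne2 by 2.70 and 2.73. Cdkn2c, which encodes the CDK inhibitor p18, rose by 5.66 ± 0.70. Ccnd3, the cyclin D3 gene, fell by 1.03 ± 0.33, and Cdkn1b, the p27 gene, differed by 0.06 ± 0.34. With the normalization set as a fixed block, E2f2, Ccne2 and Ccnd3 did not pass (adjusted p = 0.522, 0.222 and 0.149), nor did Cdc6 (adjusted p = 0.134). With it as a random block only E2f2 among these genes did not pass (adjusted p = 0.157).

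Promoters of mitosis genes are shown here because these genes moved together. Late cell cycle genes are known for CCAAT boxes, bound by NF-Y, and for the cell cycle homology region (CHR), bound by the DREAM and MuvB complexes. RefSeq windows (GRCm38.p6) of 300 bases, from 250 bases before to 50 bases after each start, were searched on both strands for the CHR letters TTTGAA, the CCAAT box letters CCAAT and the E2F site letters TTCCCGCC; none of these contains another, and CCAAT matches on opposite strands can overlap. The windows matched 34 of the 39 mitosis genes, with 36 windows. Of these 36, 28 held TTTGAA (77.8%, against 17.9% of all 32851 windows and 12% of the 10373 windows of genes tested). CCAAT was in 28 (77.8%, against 37.4% and 38.1%), and both were in 25 (69.4%, against 6.95% and 4.81%). For the replication genes, with 37 windows, TTTGAA was in 13.5% and CCAAT in 59.5%. The E2F site letters were in 16.2% of the replication windows, against 2.19% of all windows, 4.14% of the windows of genes tested and 0% of the mitosis windows. For the Tfh genes, with 29 windows, TTTGAA was in 13.8% and CCAAT in 34.5%. A match describes letters in a window, not a bound site. Not every mitosis gene was a candidate for printing, so other genes may meet the same rule. The 4 genes printed have the largest rises among the 8 candidates with 1 start and both motifs in the 200 bases before it. These 200 bases are given 5′ to 3′ on the gene's strand, with matches to CCAAT and TTTGAA on either strand in capitals.
Mki67, chr7:135716380-135716579, minus strand: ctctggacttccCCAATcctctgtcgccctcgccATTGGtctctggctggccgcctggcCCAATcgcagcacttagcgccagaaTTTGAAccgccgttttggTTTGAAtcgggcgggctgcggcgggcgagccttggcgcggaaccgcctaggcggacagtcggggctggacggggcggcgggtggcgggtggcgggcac
Kif11, chr19:37376182-37376381, plus strand: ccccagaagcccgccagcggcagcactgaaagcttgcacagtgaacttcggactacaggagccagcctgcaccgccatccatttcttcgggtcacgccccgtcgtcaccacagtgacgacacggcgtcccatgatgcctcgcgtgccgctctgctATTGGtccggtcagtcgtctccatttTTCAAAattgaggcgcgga
Ccnb2, chr9:70421555-70421754, minus strand: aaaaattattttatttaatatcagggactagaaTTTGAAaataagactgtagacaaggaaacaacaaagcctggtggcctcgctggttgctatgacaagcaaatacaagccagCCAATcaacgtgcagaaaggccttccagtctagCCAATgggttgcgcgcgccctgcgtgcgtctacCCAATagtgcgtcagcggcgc
Ube2c, chr2:164769729-164769928, plus strand: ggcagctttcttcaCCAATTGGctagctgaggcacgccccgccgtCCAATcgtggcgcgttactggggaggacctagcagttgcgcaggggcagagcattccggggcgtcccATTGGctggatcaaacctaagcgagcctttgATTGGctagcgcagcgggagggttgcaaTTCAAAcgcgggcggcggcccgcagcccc

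In these windows Mki67 carried 2 TTTGAA and 3 CCAAT matches, Kif11 1 and 1, Ccnb2 1 and 3, and Ube2c 1 and 5. Kif11 encodes a spindle motor, Ccnb2 encodes cyclin B2 and Ube2c encodes the E2 enzyme of the anaphase-promoting complex, and they rose by 8.43, 7.91 and 7.83. On the day 10 array they read 8.91, 9.26 and 10.62, each the lowest of the YFP-positive arrays, and the higher of the naive arrays read 2.78, 3.22 and 4.50.

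**Figure D4:**
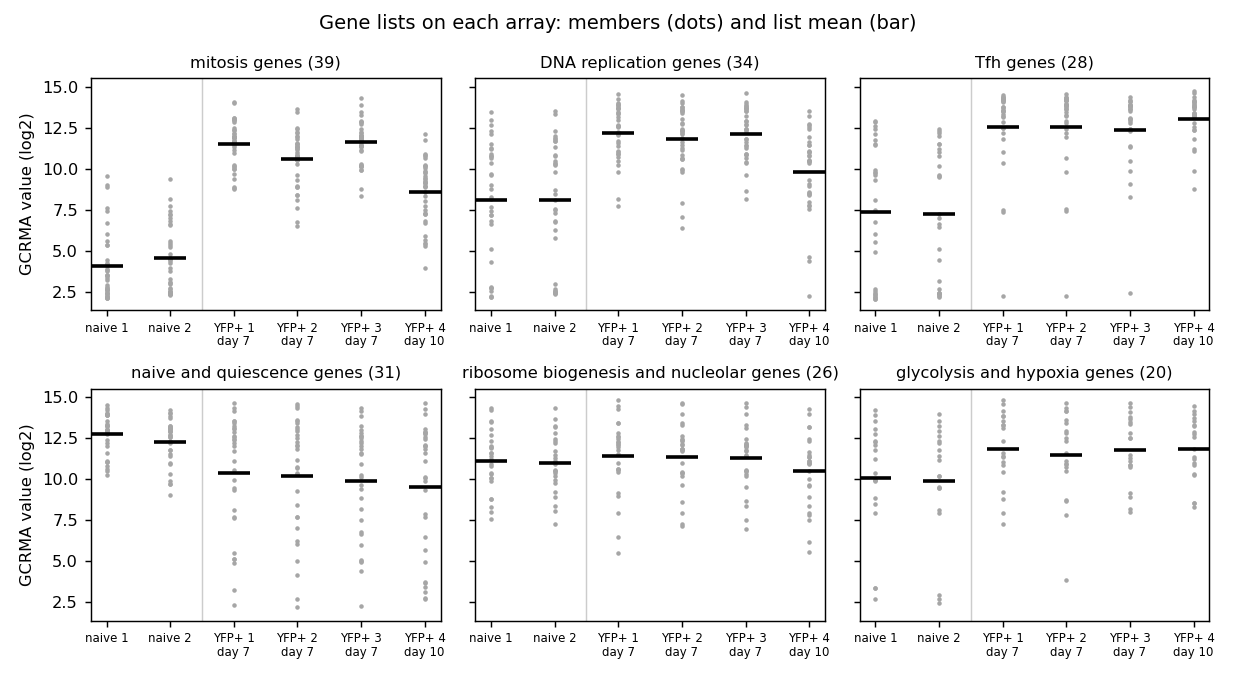
Deposited log2 GCRMA values (y axis) of 6 gene lists on the naive and YFP-positive arrays (x axis); dots are genes and bars are list means, with the number of genes in brackets. Mitosis and replication genes are high on the day 7 arrays and lower on the day 10 array, where their means are 8.60 and 9.82. The mean of the Tfh genes is 13.05 on the day 10 array and between 12.33 and 12.52 on the day 7 arrays; without Gal and Ascl2 it is 13.10, against 12.84 to 13.11.

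Glycolysis and hypoxia genes rose in 11 of 20 cases tested (24 listed) on both scales and fell in 2. Egln3, an oxygen-sensing prolyl hydroxylase and itself a hypoxia target, read 12.37, 12.32, 12.55 and 12.88 against 3.34 and 2.97 (difference 9.37 ± 0.28, adjusted p = 6.15e-13). Hk2, the inducible hexokinase gene, rose by 6.14 ± 0.74 and Tpi1, the triose phosphate isomerase gene, by 3.49 ± 0.36. The pyruvate kinase gene Pkm, Pgk1 and Aldoa rose by 1.26, 1.05 and 0.91. Of the glucose transporter genes, Slc2a1 differed by 0.52 ± 0.33 and did not pass, and Slc2a3 fell by 1.15 ± 0.38, from 12.31 and 11.80 to between 10.33 and 11.45, a call that was lost without either naive array (adjusted p = 0.227 and 0.0731).

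Other biosynthetic groups had fewer calls, beside shares of 17% higher and 6.46% lower over all genes. Of 26 genes of oxidative phosphorylation and the TCA cycle tested (29 listed), 3 rose on both scales and none fell. Of 26 ribosome biogenesis genes 2 rose, Odc1 and Eif4e, and 1 fell, the RNA polymerase I subunit gene Polr1b. Their median difference was 0.04 on the deposited scale, against 0.39 over all genes. In the single pair of the shared set it was -0.76, against 0.02 over all genes. There 23 of 26 were lower on YFP-positive 4, against 4773 of all 9930 genes. Myc, which drives ribosome production, read 6.56, 8.59, 7.41 and 6.56 against 9.57 and 9.93 (difference -2.47 ± 0.57, adjusted p = 0.00394). All YFP-positive arrays lay below both naive arrays for Myc, and without naive 2 its adjusted p was 0.0522.

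Of 20 genes of cholesterol and fatty acid synthesis tested (24 listed), 1 rose (Scd2) and 1 fell (Mvd). Over all genes the shares were 17% higher and 6.46% lower. Of 18 genes of amino acid transport and one-carbon metabolism tested (20 listed), 2 rose, the serine synthesis gene Psat1 (2.75 ± 0.42) and the mitochondrial folate gene Mthfd2 (1.5 ± 0.29). Of 22 heat shock and ER folding genes tested (23 listed), 7 rose, led by Sdf2l1 (4.0 ± 0.54), with Xbp1, Pdia6, Creld2 and the chaperone gene Hspa5 (1.27 ± 0.20) among them. Hspa1b, which has a near-identical copy in Hspa1a, read 3.65 and 12.68 on the naive arrays and did not pass.

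Genes induced by the T cell receptor rose in 13 of 34 cases tested (36 listed) on both scales and fell in 1, Myc. Nfatc1 rose by 3.48 ± 0.31, Egr2 by 2.27 ± 0.28 and Rgs16, a brake on chemokine receptor signalling, by 8.66 ± 0.76. Nfatc2 rose by 1.27, but another probe set of that gene gave -3.61, so its direction rests on the probe set. The immediate early gene Fos read 12.88, 13.78, 13.67 and 14.06 on YFP-positive 1 to 4 against 9.98 and 12.61, and Jun rose by 2.72 ± 0.59 from 7.06 and 10.37. For both genes the naive arrays lay further apart than the YFP-positive arrays. Without naive 1 neither passed (adjusted p = 0.098 and 0.0683). Of 32 genes of proximal receptor signalling tested (35 listed), 9 rose and 2 fell, against 17% and 6.46% of all genes. Zap70 rose by 1.45 ± 0.29 and Malt1 by 1.67 ± 0.38, and Txk, a Tec family kinase gene, fell by 3.01 ± 0.66.

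Interferon-induced genes split into 6 that rose and 4 that fell out of 26 tested (30 listed), against 17% and 6.46% of all genes. Oas1a rose by 3.15 ± 0.30, while Oas2 of the same family read 1.89, 2.22, 3.38 and 2.51 against 7.92 and 8.08 (difference -5.50 ± 1.12, adjusted p = 0.00156). In the BCL2 family 3 of 12 tested (19 listed) rose on both scales, Pmaip1 (NOXA), Bak1 and Bad, which promote cell death. Over all genes the share was 17%. Bcl2l11 (BIM), which also promotes cell death, differed by -1.19 without a call on the deposited scale. Its other probe sets gave -1.01, -1.53 and -1.17. Bcl2, which opposes cell death, read 10.94, 10.70, 10.98 and 11.98 against 13.06 and 12.76 (difference -1.77 ± 0.31, adjusted p = 0.000434). After quantile normalization 4 of the 12 rose and 3 fell. Of 8 GIMAP genes, which encode GTPases of lymphocyte survival, 1 fell on both scales, Gimap7 (-2.05 ± 0.55). All 8 were lower in the single pair of the shared set, against 4773 of all 9930 genes.

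Of 8 Th17 and Th2 genes tested (19 listed), 7 rose and none fell: Rora, Ahr, Gata3, Ccr6, Il1r1, Batf and Il4, each given above. Among the listed genes not tested, 5 lay below the filter on low values and 6 had no probe set named. Il1r1, Batf and Il4 are also members of the Tfh list. The 8 genes averaged 10.76, 10.47, 9.98 and 10.17 on YFP-positive 1 to 4. In CXCR5lo PD-1lo cells they averaged 10.45, 9.47 and 8.83. Of 19 Th1 and cytotoxic genes tested (25 listed), 2 rose, Cxcr3 and Gzma, and 4 fell, Prdm1, Il18r1, Klrd1 and Ctsw. Of all 9930 genes 17% rose and 6.46% fell on both scales. The granzyme gene Gzmb stayed at 2.19 or lower on all 6 arrays and averaged 10.29 in CXCR5lo PD-1lo cells. Of 18 S100, annexin and galectin genes tested (21 listed), 6 rose and 3 fell, the intermediate filament gene Vim by 2.14 ± 0.71, Emp3 by 3.58 ± 0.58 and Crip1 by 2.07 ± 0.63. Vim and Crip1 did not pass without either naive array. Of 16 genes of regulatory T cells tested (19 listed), 6 rose, among them Nrp1 (4.96 ± 0.34) and Ikzf2, and 4 fell, Foxp3, Il2ra, Ikzf4 and Gpr83.

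**Figure D5:**
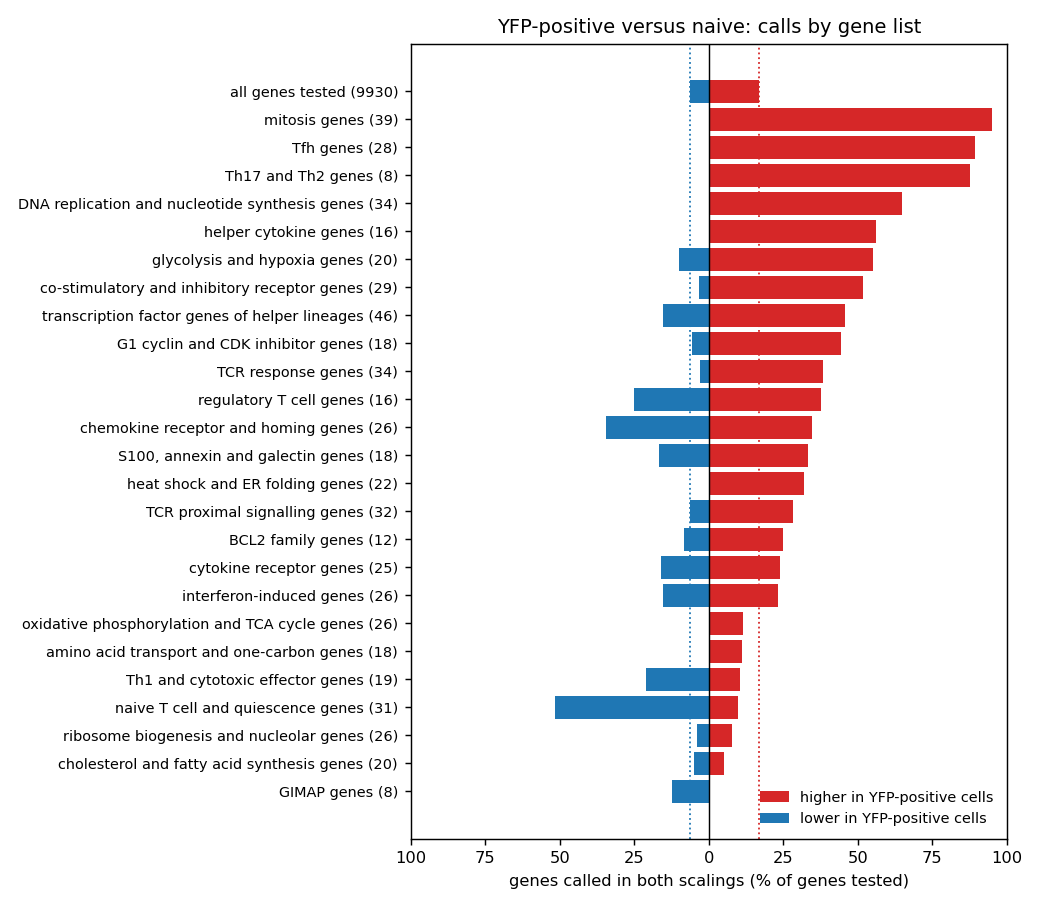
Share of the genes of each list called higher or lower on both scales, in percent of the genes tested (x axis), with the number of genes in brackets; dotted lines mark the shares over all 9930 genes, 17% higher and 6.46% lower. Mitosis genes (37 of 39) and Tfh genes (25 of 28, the 3 genes of the sort included) have long bars on the higher side and genes of the naive state (16 of 31) on the lower side.

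The direct test of YFP-positive against CXCR5lo PD-1lo cells, in the same fit, called 1049 of 9930 genes (10.6%), 514 higher (5.18%) and 535 lower (5.39%) in YFP-positive cells. Replicates 1 to 3 of both groups share normalization sets by number, and with the replicate number as a block these 6 arrays gave 1408 higher and 1384 lower calls. Gate genes of that sort, Cxcr5 and Pdcd1, differed by 3.79 and 3.30, and Bcl6 by 1.58. Of the other 25 Tfh genes tested, 12 were higher with a call in the fit without a block. Beside Cebpa, Tox2, Il21, Il4, Sostdc1 and Il1r1, given above, these were S1pr2, Ascl2, P2rx7, Batf, Pou2af1 and Tnfsf8, at 2.89, 6.65, 1.34, 1.07, 1.63 and 2.46. Irf4 was lower in YFP-positive cells by this test (-1.18 ± 0.31, adjusted p = 0.0211), although it rose from the naive level, and the call was lost without YFP-positive 3 (adjusted p = 0.068). Icos, Cd200 and Maf had no call, with differences of -0.08 ± 0.19, 0.12 ± 0.25 and 0.66 ± 0.31, which does not show that the populations have the same level. With the normalization set as a fixed block Maf was 0.70 higher and passed (adjusted p = 0.000193). Sh2d1a and Cd40lg passed in that fit too, at 0.60 and 0.86 (adjusted p = 0.00077 and 0.00491). After quantile normalization Maf was 0.715 higher and passed too (adjusted p = 0.0217).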

How the data were processed

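RNA of sorted CD4 T cells was extracted with TRIzol (for naive 2, TRIzol or an RNeasy kit), amplified with a NuGEN Ovation kit and hybridized to Affymetrix arrays, per the labels' protocols. The authors deposited 1 table of log2 values for 45101 probe sets on 19 arrays, made with GCRMA per the submitters' processing notes; scanner files were not used here. Precision is limited by the number of arrays, 4 YFP-positive and 2 naive.

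Of the probe sets, 34945 had 1 gene symbol in GEO's platform annotation, 932 had several, 9160 had none and 64 were controls. Probe sets at log2 4 or more on at least 2 arrays were kept (18626), with the highest mean per gene, which left 9930 of 18193 named genes. limma 3.58.1 in R 4.3.3 fitted all 19 arrays in 6 groups, with Benjamini-Hochberg adjustment over all genes and a threshold of 0.05; the fit was tested on simulated data. No sample was dropped or imputed. Named genes are the 15 highest and 15 lowest differences among called genes whose arrays do not overlap, symbols starting with Gm or LOC or ending in Rik left out, and members of the gene lists.

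Normalization sets are arrays linked by a distance under 0.06 between their sorted values. Alternatives were quantile normalization, median centring, other filters, the mean of a gene's probe sets, the 6 arrays alone, the set as a fixed or random block, a trended robust variance, day 10 as a covariate and each array left out. Replicate numbers pair YFP-positive and CXCR5lo PD-1lo arrays 1 to 3: the deviations from the group means of same-numbered arrays correlated at 0.61 to 0.66 over genes. The comparison, gene lists and promoter motifs were chosen with earlier results of these data known. Listed genes that were not tested are not described.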

Additional observations from a re-analysis of the deposited data

Results flagged for a closer look

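In 17 of the 172 genes named, 1 of the 4 YFP-positive arrays lay apart from the other 3, with a gap to the nearest above Dixon's critical share of the group's range; chance sets 1 array apart in about 1 in 20 groups. In 13 of the 17 the array apart was YFP-positive 4, the day 10 sample, and day, normalization set and sex-linked transcripts cannot be told apart there.

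On YFP-positive 4 the sex-linked transcripts were apart, with its log2 value against the nearest other array: Eif2s3y (13.26 against 2.40, gap 0.987 of the range) and Xist (2.08 against 13.46, gap 0.949 of the range). The helper T cell genes Gal (13.22 against 2.41, gap 0.982 of the range), Rgs16 (12.80 against 10.66, gap 0.991 of the range) and Pdcd1 (14.73 against 14.35, gap 0.992 of the range) were higher on that array, as was Ctsw (4.24 against 2.18, gap 0.971 of the range). The kinase gene Txk (4.96 against 7.54, gap 0.939 of the range) was lower. Cell cycle genes were lower on it too, namely Cdc6 (7.98 against 11.16, gap 0.874 of the range), Ccne2 (8.23 against 10.31, gap 0.888 of the range), Cdt1 (10.51 against 12.04, gap 0.877 of the range), Mcm7 (11.93 against 13.39, gap 0.832 of the range), Pold1 (11.04 against 12.81, gap 0.924 of the range) and Dnmt1 (13.24 against 13.97, gap 0.91 of the range).

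On YFP-positive 1 the plasma cell gene Jchain (8.45 against 3.06, gap 0.863 of the range) was apart, and so was Ccl5 (2.66 against 2.14, gap 0.89 of the range). On YFP-positive 3 Ccr2 (2.72 against 2.31, gap 0.874 of the range) and Tbx21 (2.33 against 2.13, gap 0.85 of the range) were apart, and for these genes and Ccl5 all 4 arrays lay near the floor.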

How the results depend on the processing

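The number of genes called against naive cells, 2863, became 4663 with the normalization set as a fixed block and 4929 with it as a random block, and it ranged from 1588 to 3186 when 1 array was left out. The number of higher genes stayed within 1.5 times of 2222 under all alternatives run other than leaving out naive 2, and ranged from 1112 to 2554 with 1 array left out. The number of lower genes, 641, became 2045 after quantile normalization, 1986 with median centring, 2177 with the set as a fixed block and 2189 with it as a random block, and ranged from 331 to 632 with 1 array left out. Higher genes made up 46.1% of the calls after quantile normalization and 44.2% with median centring, against 74.4% to 79.8% with the other filters, and the median gene moved from 0.39 to -0.08 and -0.13 under those scalings. Against CXCR5lo PD-1lo cells, alternatives chosen after seeing the data gave 1408 higher and 1384 lower genes with a replicate block over replicates 1 to 3, against 543 and 442 for the same arrays without it, and 2256 and 2183 with the normalization set as a fixed block. No paired analysis was possible for YFP-positive against naive cells because the labels give those groups only 1 number in common.

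Of the 172 genes named, 4 turned direction with a call in at least 1 of the compared fits. With the set as a fixed block Eif2s3y was 9.74 and Xist -9.85, Btg1 was -0.51 with median centring, and Nfatc2 was -0.39 with the mean of its probe sets. In 65 further cases the sign differed with neither value called. Without naive 1, 14 calls were lost, and without naive 2, 22; beside the genes given above these were Gata3, Klf6, Ndc80, Ccne2, Ccnd3, Polr1b, Mvd and Gimap7 without naive 1, and Gata3, Foxp1, Cd40lg, Ramp1, Rgs10, Nsg2, Ndc80, E2f2, Ccne2, Ccnd3, Aldoa, Polr1b, Scd2, Mvd, Malt1, Gimap7 and Gpr83 without naive 2. Leaving out 1 YFP-positive array lost at most 4 calls against naive cells. Against CXCR5lo PD-1lo cells, 9, 11, 12 and 5 calls of the 172 genes were lost without YFP-positive 1, 2, 3 and 4. There 12 were lost without the filter on low values and 3 without either naive array. The set as a fixed block added 50 calls and quantile normalization added 22. Bcl2 had an adjusted p of 0.0514 with the mean of its probe sets. For the single pair of 1 normalization set, quantile normalization gave 1692 higher and 1299 lower genes. The cause of these changes was not tested.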
